A study of Mus musculus with 6 samples.

Results

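The proteasome genes measured here were the genes whose symbol starts with Psm, then a letter from a to g and a digit, on probe sets that the platform annotation assigns to exactly 1 gene. They comprised 58 of the 12422 probe sets on the array and 46 of its 8251 named genes, and the rule uses symbols and annotation only. Messenger RNA was measured in the striatum, the forebrain region most affected in Huntington's disease, on Affymetrix arrays with 1 array per mouse. Hdh4/Q80 mice (n = 3, replicates 7 to 9), labelled as transgenic, have a lengthened CAG repeat in their own huntingtin gene, so that the mutant protein is made from the gene's own locus and not only in striatal neurons. Their wild-type littermates (n = 3, replicates 4 to 6) lack it. All 6 mice were females of strain C57BL/6 aged 12 months, and the labels name no further allele or agent. How many mutant copies each mouse carries is not stated in its label.

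The proteasome degrades proteins tagged with ubiquitin. A barrel-shaped core of alpha and beta rings holds the proteolytic sites, and a regulatory cap made of a base with an ATPase ring and a lid binds, unfolds and feeds in the substrate. Other caps activate the core without ubiquitin, dedicated chaperones assemble the particle, and under interferon the catalytic beta subunits are replaced by immunoproteasome subunits. In Huntington's disease the pathway is studied because expanded huntingtin fragments accumulate in ubiquitin-positive inclusions.

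The 46 genes fell into 7 core alpha, 7 core beta, 3 immunoproteasome, 9 base and 8 lid subunits, 3 activators and 7 assembly chaperones, and the 2 remaining symbols, Psmc3ip and Psme3ip1, belong to proteins named for binding a subunit and are not subunits. The inhibitor Psmf1 and the activator Psme2 lacked a probe set of their own and were not analysed here. A gene measured more than once is represented by its brightest probe set over the 6 mice, and its other probe sets are given beside it. Values are log2 expression after robust multi-array averaging, and differences are Hdh4/Q80 minus wild type.

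Of the 6 striatal projection neuron markers measured, Penk, the enkephalin precursor, read 12.94 to 13.14 in Hdh4/Q80 and 12.92 to 13.14 in wild-type mice, and Rgs9, which ends G protein signals in these neurons, was dim at 5.62 to 5.76 and 5.50 to 5.66. Ptpn5, a phosphatase of these neurons, read 10.26, 10.05 and 10.43 in Hdh4/Q80 and 10.75, 10.32 and 10.29 in wild-type mice (-0.21, but 0.24 on a dimmer probe set), and the dopamine receptor Drd2 differed by -0.06. On the brightest probe sets these 2 were the markers below 0 of the 6. The brightest Penk probe set was near the top of the measured range, which reached 13.42. Penk and Pdyn, another of the 6, differed by 0.02 and 0.08 on their brightest probe sets. The dimmer ones were below 0, at -0.19 and -0.12 for Penk and -0.07 for Pdyn. The Hdh4/Q80 replicate 8 array stood apart. Across probe sets its correlation with other arrays averaged 0.992, against 0.995 to 0.997 for the other 5 mice. It was the lowest mouse for 36.0% of all 8251 genes and the highest for 26.5%. Main counts and class medians are therefore also given without it.

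No proteasome gene differed between Hdh4/Q80 and wild-type striatum after adjustment. By limma, with Benjamini-Hochberg adjustment over all probe sets, 0 of the 58 proteasome probe sets had an adjusted p under 0.05 (smallest 0.857), as did 0 of 12422 on the array (0.0%). At an unadjusted p under 0.05 there were 3 of the 58 probe sets, 1 each for Psmc3, Psmc5 and Psme1, beside 5.1% of all probe sets. On the brightest probe sets 1 of 46 genes, Psmc3, reached that level, beside 4.3% of all genes. Differences of the 46 genes ran from -0.22 to 0.11. For 46 of 46 the 95% interval lay within a 1.5-fold change on the array scale in either direction, as it did for 99.1% of all genes, and the widest bounds were -0.44 and 0.36. True fold changes may be larger, because the authors' summary method compresses them.

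The differences leaned below 0. Of the 46 genes 37 (80.4%) were below 0, with a median of -0.07, while 53.3% of all genes were below 0, with a median of -0.01. The comparison depends on signal level, since 61.9% of the 3835 genes at or above the lower quartile of the proteasome genes (a mean of 7.58 or more) were below 0. Of the 34 proteasome genes past the same level 30 were below 0. The groups did not overlap for 2 of 46 genes with the mutants below, Psmc3 and Psma6, beside 5.22% of all genes, and for 0 of 46 with the mutants above, beside 5.87%. Over all 58 probe sets the mutants lay below for 3 and above for 3, beside 5.05% and 6.67% of all probe sets. In bulk tissue, fewer cells of a type and less RNA per cell cannot be told apart.

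**Figure D1:**
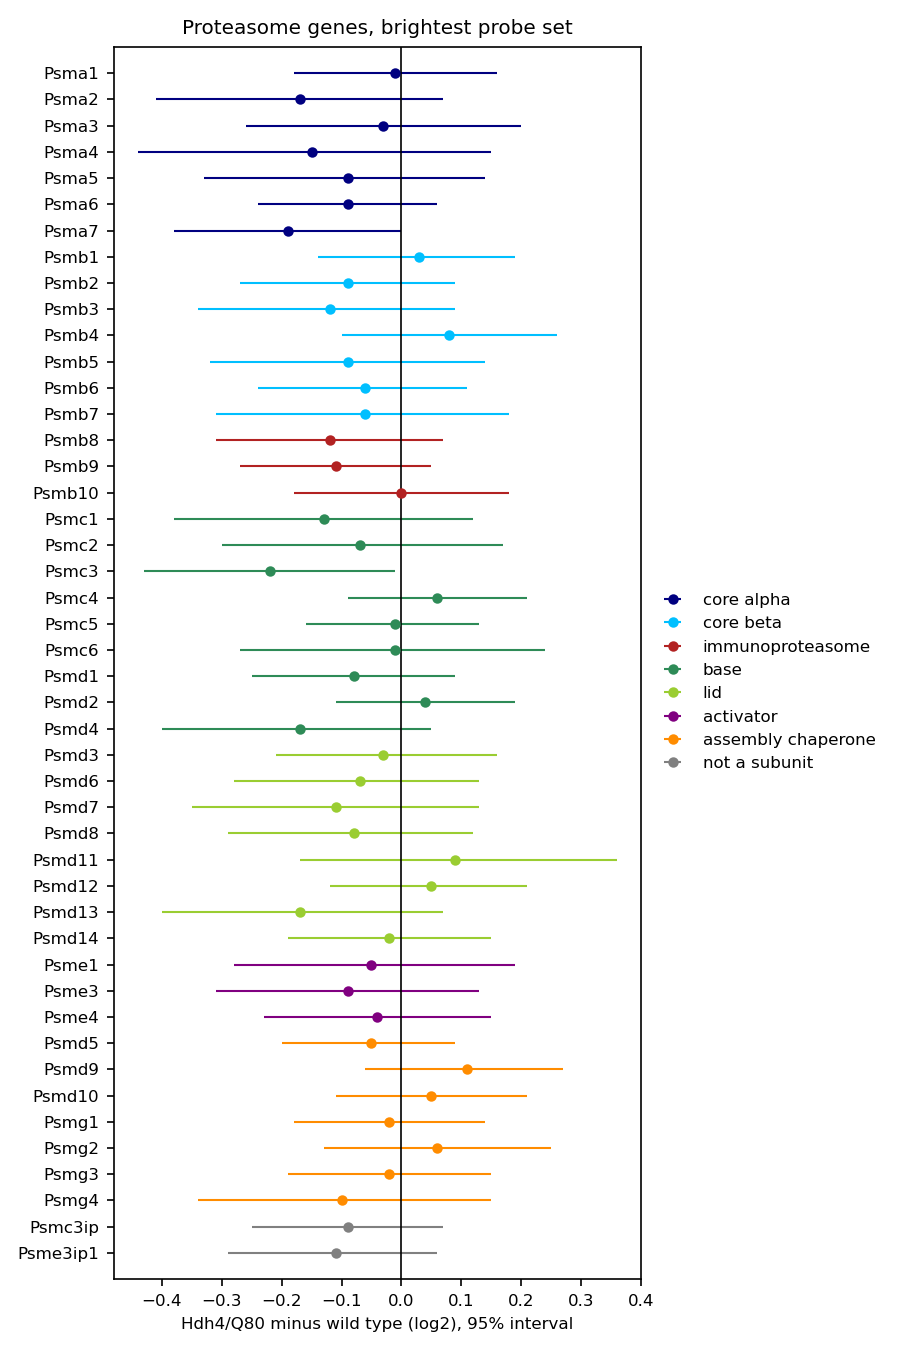
Differences between Hdh4/Q80 and wild-type striatum for 46 genes, each on its brightest probe set. Points are limma estimates on the log2 scale, bars are 95% intervals and colours mark the subunit class. The points run from -0.22 (Psmc3) to 0.11 (Psmd9), 37 of them are below 0, and every bar except that of Psmc3 crosses 0.

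One mouse carried most of this lean. Hdh4/Q80 replicate 8 was the lowest of the 6 mice for 31 of the 46 genes (67.4%), and for 23 of the 31 constitutive core, base and lid subunits (74.2%). The same mouse was lowest for 49.0% of all genes past the level of 7.58. The median deviation of the 31 constitutive subunits from their own 6-mouse means was 0.00, -0.18 and 0.06 in Hdh4/Q80 replicates 7, 8 and 9, against 0.10, -0.04 and 0.04 in wild-type replicates 4, 5 and 6. Replicates 7 and 9 thus lay among the wild types, and wild-type replicate 4 was the highest mouse for 12 of the 31 subunits. Without replicate 8, 22 of the 46 genes (47.8%) were below 0, beside 48.6% of all genes in that fit, and the median was 0.00. Among the 31 constitutive subunits the count became 15, against 25 with all mice. Differences then ran from -0.13 to 0.12, and 0 genes had an unadjusted p under 0.05.

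**Figure D2:**
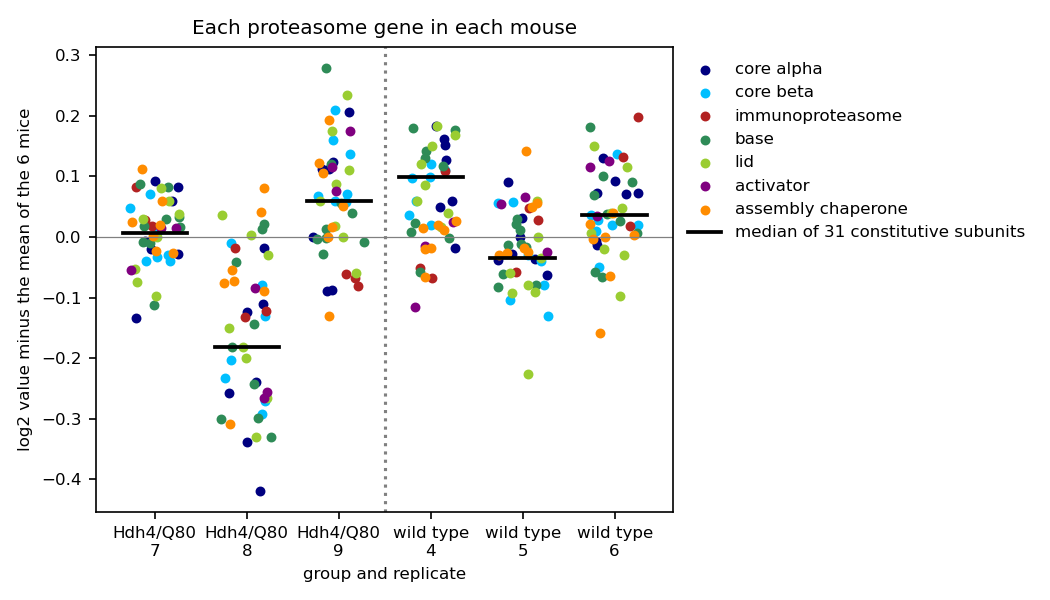
Deviation of 44 proteasome genes from their own mean over the 6 mice (log2), one column per mouse, with points coloured by subunit class and spread sideways at random. Black bars are medians of the 31 constitutive subunits; the bar of Hdh4/Q80 replicate 8 is at -0.18 and the other 5 bars are between -0.04 and 0.10.

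Microglial, astrocyte and endothelial markers were mostly lowest in Hdh4/Q80 replicate 8. Of all genes 36.0% were lowest there, and of those past the level of 7.58, 49.0%. Of 11 measured microglial markers 8 were lowest in Hdh4/Q80 replicate 8, and on the brightest probe sets 11 of 11 had differences below 0. In limma's fit 4 of them (C1qa, C1qb, C1qc and Tyrobp) had an unadjusted p under 0.05, beside 4.3% of all genes. The smallest adjusted p of the list was 0.857 in that fit. Dimmer probe sets of C1qb, Fcer1g and Laptm5 were above 0 (0.24, 0.08 and 0.11), and those of Cd68 and Csf1r below 0 (-0.16 and -0.14). The dimmer C1qb probe set also had an unadjusted p under 0.05 in limma's fit (0.0465, adjusted p = 0.857), in the direction opposite to its brightest. For Laptm5 the mutants lay below the wild types on the brightest probe set and above them on the dimmer one. Without replicate 8 the count below 0 was 9 of 11, with a median of -0.09. The mean log2 value of the 11 markers was 8.22 to 8.42 in Hdh4/Q80 and 8.45 to 8.55 in wild-type mice. The 5 astrocyte markers averaged 8.62 to 8.90 in Hdh4/Q80 and 8.83 to 8.95 in wild-type mice, with replicate 8 lowest for 4 of them. The 3 choroid plexus markers averaged 6.98, 8.35 and 8.84 in Hdh4/Q80 replicates 7, 8 and 9. In wild-type mice they averaged 6.94 to 8.01, with replicate 6 the highest of these. Hdh4/Q80 replicate 9 was highest of the 6 mice for 3 of 3. All 3 differences were above 0, with a median of 0.83, or 0.67 without replicate 8, and the groups overlapped in each on the brightest probe sets. The endothelial markers were lowest in replicate 8 for 6 of 9, with 4 of 9 differences below 0, and the cortex markers for 1 of 4. Of the 6 markers of T and other immune cells 4 were highest in replicate 8. The oligodendrocyte and striatal neuron markers were lowest there for 2 of 6 in each list. Of the 2 blood markers Hba-a1 differed by -0.43, with the mutants below the wild types (unadjusted p = 0.000543, adjusted p = 0.857 in limma's fit). The other, Alas2, differed by -0.01 with overlapping groups. The part of other cell types in the proteasome values was not tested.

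**Figure D3:**
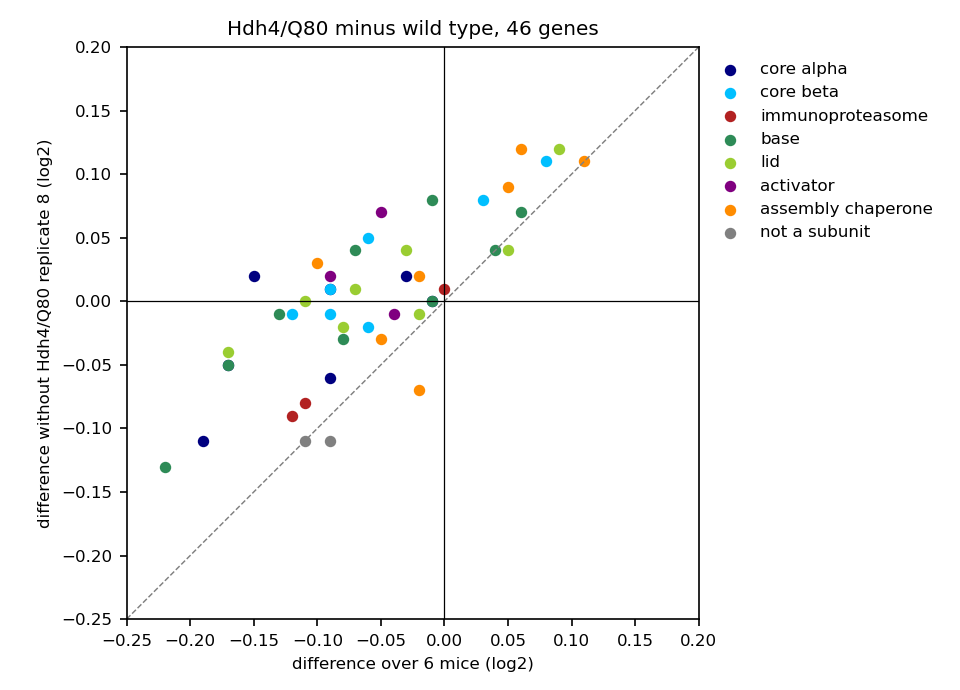
Differences of the 46 genes over all 6 mice (horizontal) and without Hdh4/Q80 replicate 8 (vertical), both Hdh4/Q80 minus wild type on the log2 scale; the dashed line marks equal values. Most points lie above the line, and the median of -0.07 over 6 mice became 0.00.

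The core alpha subunits form the outer rings and the gate of the barrel. All 7 were below 0, with a median of -0.09 and a range of -0.19 to -0.01. Without replicate 8 the count was 4 of 7, with a median of 0.00. Psma7 read 8.34, 8.04 and 8.19 in Hdh4/Q80 replicates 7, 8 and 9, against 8.33, 8.37 and 8.41 in wild-type replicates 4, 5 and 6. The groups met only at replicate 7, which lay just above the lowest wild type. Its difference was -0.19 ± 0.0851 (SE), with a 95% interval of -0.38 to 0.00 and limma's adjusted p was 0.857. Leaving out 1 mouse at a time gave -0.26 to -0.11. Psma2 read 9.47, 9.16 and 9.61 in the mutants and 9.65, 9.53 and 9.57 in wild types, so that replicate 8 was far below the other 5 mice and replicate 9 was inside the wild-type range (-0.17 ± 0.107, SE; -0.05 without replicate 8). Psma6 read 9.50, 9.41 and 9.52 in the mutants and 9.58, 9.52 and 9.59 in wild types. The mutants lay below the wild types by a narrow margin, with a difference of -0.09 ± 0.0683 (SE). Psma4 had the widest range of any member over the 6 mice, 0.58, and its difference of -0.15 became 0.02 without replicate 8. Psma1, Psma3 and Psma5 differed by -0.01, -0.03 and -0.09.

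The promoters of some members are shown because sequence is one feature that the choice of genes did not use. The 250 bases before the annotated start were available for 39 of the 46 genes (RefSeq, GRCm38.p6). TGACNNNGC, the core of the antioxidant response element through which the transcription factors Nfe2l1 and Nfe2l2 regulate proteasome genes, occurred on either strand in 5 of the 39 (12.8%), beside 11.5% of 27025 genes with a promoter in the same table. CCAAT occurred in 15 of 39 (38.5%), beside 37.5%. The 2 core alpha genes of smallest p, Psma7 (chr2:180042465-180042714, minus strand) and Psma2 (chr13:14612992-14613241, plus strand), each held 1 CCAAT. The catalytic gene Psmb5 (chr14:54617996-54618245, minus strand) held 1 TGACNNNGC and the immunoproteasome gene Psmb9 (chr17:34187331-34187580, minus strand) 1 CCAAT on the reverse strand. Capitals mark these motifs, which do not overlap another searched motif in these windows.
Psma7: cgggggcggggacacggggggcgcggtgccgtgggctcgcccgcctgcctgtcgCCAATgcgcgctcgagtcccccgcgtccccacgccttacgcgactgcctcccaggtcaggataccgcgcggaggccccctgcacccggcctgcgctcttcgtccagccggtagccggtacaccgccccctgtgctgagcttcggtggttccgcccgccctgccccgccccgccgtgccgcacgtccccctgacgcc
Psma2: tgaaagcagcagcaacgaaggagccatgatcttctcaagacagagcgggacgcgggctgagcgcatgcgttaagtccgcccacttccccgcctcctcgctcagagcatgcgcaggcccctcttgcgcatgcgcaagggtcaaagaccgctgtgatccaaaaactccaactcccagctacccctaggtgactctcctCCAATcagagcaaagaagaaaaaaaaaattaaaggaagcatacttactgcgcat
Psmb5: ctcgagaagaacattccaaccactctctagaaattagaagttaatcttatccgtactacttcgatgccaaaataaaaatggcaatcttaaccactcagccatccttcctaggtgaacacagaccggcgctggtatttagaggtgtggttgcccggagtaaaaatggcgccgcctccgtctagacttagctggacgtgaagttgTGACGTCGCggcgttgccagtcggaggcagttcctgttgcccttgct
Psmb9: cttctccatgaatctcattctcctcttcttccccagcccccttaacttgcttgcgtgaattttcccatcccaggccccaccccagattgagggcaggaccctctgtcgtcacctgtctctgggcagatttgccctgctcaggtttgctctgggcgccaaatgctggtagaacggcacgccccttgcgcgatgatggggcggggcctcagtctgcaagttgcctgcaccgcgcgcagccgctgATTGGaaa
Among the 25 constitutive subunit genes with a promoter, the 10 with CCAAT had a median difference of -0.11 (-0.19 to -0.01, 10 of 10 below 0) and the 15 without it -0.06 (-0.17 to 0.09, 10 of 15 below 0). Without replicate 8 the medians were -0.01 (8 of 10 below 0) and 0.01 (4 of 15 below 0). The 4 with TGACNNNGC, Psmb5, Psmb6, Psmc6 and Psmd12, had a median of -0.04, and the 21 without it -0.08; these became 0.02 and 0.00 without replicate 8. These splits were not tested and are descriptions of short letter matches. A gene counted if any of its listed promoters held the motif, and Psma6 and Psmc2 each have a second promoter without CCAAT. The CCAAT split overlaps with subunit class. The genes with it include the core alpha genes Psma1, Psma2, Psma3, Psma6 and Psma7, and all 7 core alpha genes were below 0 over the 6 mice.

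The beta subunits form the inner rings. Of 7 measured, 5 were below 0, with a median of -0.06, and without replicate 8 the count was 3, with a median of 0.01. Psmb5, Psmb6 and Psmb7 carry the chymotrypsin-like, caspase-like and trypsin-like sites. Psmb5 read 8.59, 8.39 and 8.76 in Hdh4/Q80 mice, against 8.72, 8.52 and 8.76 in wild types (-0.09, interval -0.32 to 0.14). A second probe set of Psmb5 went the other way, at 7.97, 8.24 and 7.98 in the mutants and 7.96, 7.90 and 7.80 in wild types. There the mutants lay above the wild types, by 0.18 ± 0.0906 (SE; unadjusted p = 0.0777, adjusted p = 0.857 in limma's test), so the direction for Psmb5 depends on the probe set. Psmb6 read 9.11, 9.02 and 9.22 in the mutants and 9.27, 9.11 and 9.17 in wild types (-0.06, interval -0.24 to 0.11). Psmb7 read 8.64, 8.41 and 8.89 in the mutants and 8.79, 8.65 and 8.70 in wild types (-0.06, interval -0.31 to 0.18). In both genes the groups overlapped, with replicate 8 lowest. Among the structural beta subunits, Psmb4 was above 0 on all 3 of its probe sets (0.08, 0.05 and 0.10). Its brightest read 9.55, 9.57 and 9.74 in the mutants and 9.64, 9.45 and 9.53 in wild types. Psmb1 differed by 0.03, Psmb2 by -0.09 and Psmb3 by -0.12, and the last became -0.01 without replicate 8.

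The immunoproteasome subunits Psmb8, Psmb9 and Psmb10 take the places of Psmb5, Psmb6 and Psmb7 in cells exposed to interferon gamma and in immune cells, and shape the peptides that reach MHC class I molecules. Their differences were -0.12, -0.11 and -0.00, with a median of -0.11, and 0 of 3 passed the test. Psmb8 read 6.63, 6.48 and 6.52 in Hdh4/Q80 mice, against 6.55, 6.63 and 6.80 in wild types (interval -0.31 to 0.07). Psmb9 read 6.65, 6.50 and 6.57 in the mutants and 6.74, 6.68 and 6.65 in wild types (interval -0.27 to 0.05). In Psmb9 the groups met at 6.65, whereas in Psmb8 replicate 7 lay inside the wild-type range. Psmb10 read 9.12, 9.02 and 8.97 in the mutants and 8.97, 8.98 and 9.17 in wild types, with equal means of 9.04 ± 0.0727 and 9.04 ± 0.113 (SD, n = 3 each; interval -0.18 to 0.18). Replicate 8 was the lowest mouse for Psmb8 and Psmb9 but not for Psmb10. Without it Psmb8 and Psmb9 differed by -0.09 and -0.08, and 2 of the 3 genes were below 0, with a median of -0.08. On the array scale these intervals lie within a 1.5-fold change in either direction, as they do for 99.1% of all genes. Smaller differences are not excluded, and true fold changes may be larger than those on the array scale. Psmb8 and Psmb9 were dim, at percentiles 38.9 and 39.5 of all probe sets by level. The filter on the dimmest 40% of probe sets removed both and left only Psmb10 of this class. No detection calls were used, so how much of the signal of Psmb8 and Psmb9 is background is not known.

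**Figure D4:**
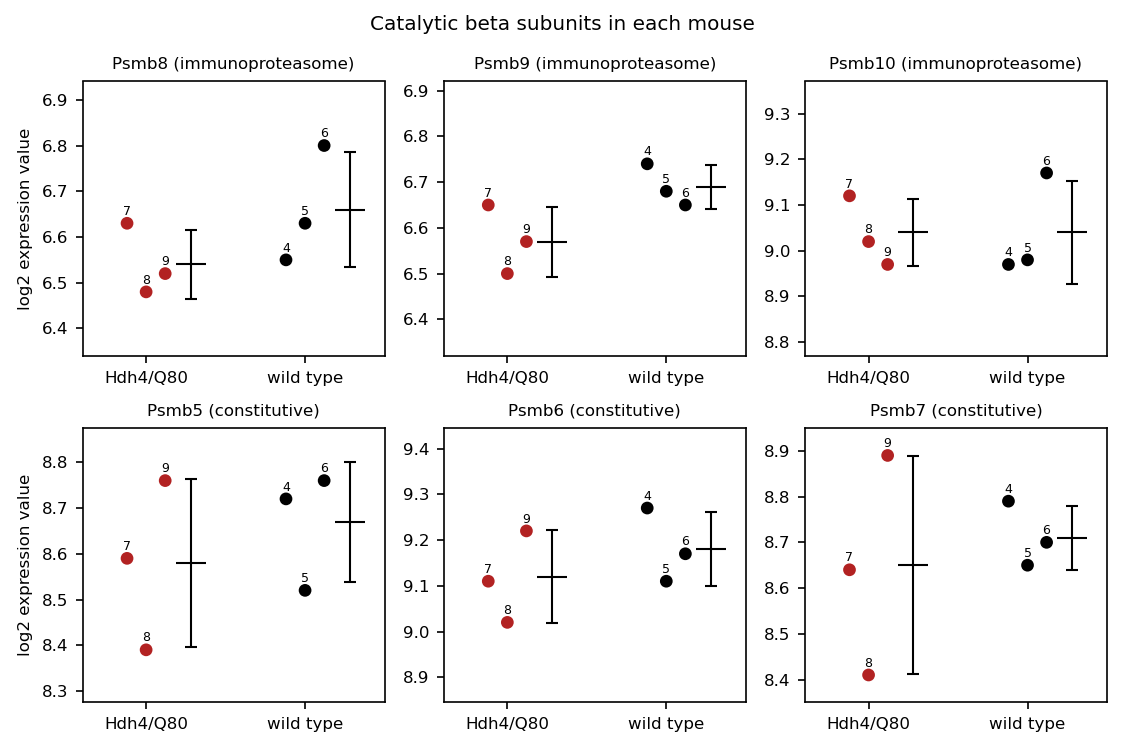
Log2 expression of the immunoproteasome subunits (upper row) and the constitutive catalytic subunits they replace (lower row) in Hdh4/Q80 and wild-type striatum. Points are mice, numbered by replicate, bars are mean ± SD (n = 3), and each panel spans 0.6 log2 units around its own centre; the groups overlap or meet in all 6 panels.

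Within each mouse, deviations of the immunoproteasome subunits were also set against those of their counterparts. The deviation of Psmb8 minus that of Psmb5 was 0.06, 0.11 and -0.22 in Hdh4/Q80 mice, against -0.15, 0.13 and 0.06 in wild types, a group difference of -0.03. For Psmb9 minus Psmb6 the group difference was -0.05 and for Psmb10 minus Psmb7 it was 0.06.

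In the annotation Psmb9, Tap1, Psmb8 and Tap2 follow each other as protein-coding neighbours in the MHC region. Tap1 and Tap2, the transporter that carries peptides into the endoplasmic reticulum, differed by 0.00 and -0.02 on their brightest probe sets. A dimmer probe set of Tap1 read 6.84, 6.82 and 6.86 in Hdh4/Q80 mice and 6.54, 6.50 and 6.57 in wild types, a difference of 0.30 ± 0.0651 (SE; unadjusted p = 0.00102, adjusted p = 0.857 in limma's test), and it was singled out after its value was seen. The Tap1 probe sets therefore disagree. Of 11 measured genes of interferon signalling and peptide loading out of 14 listed, 6 were below 0, with a median of -0.02, and 0 passed. The members of smallest p were B2m, the MHC class I light chain (-0.28 ± 0.136, SE), Tapbp, which bridges Tap1 to class I molecules (0.15 ± 0.0747), and the class I heavy chain H2-K1 (-0.08 ± 0.102). The dimmer probe sets of Tapbp differed by 0.06 and 0.05, with overlapping groups. Those of H2-K1 differed by 0.02 and 0.06, so the direction for H2-K1 depends on the probe set. B2m was lowest in replicate 8 at 9.09, against 9.57 and 9.60 in replicates 7 and 9 and 9.59, 9.63 and 9.89 in wild types, and its difference was -0.12 without that mouse.

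The base holds the ATPases Psmc1 to Psmc6, which unfold substrates, and the non-ATPase subunits Psmd1, Psmd2 and Psmd4. Of 9 genes 7 were below 0, with a median of -0.07, and without replicate 8 the count was 4, with a median of 0.00. Psmc3 had the lowest difference of all members. It read 8.24, 7.95 and 8.22 in Hdh4/Q80 mice, against 8.39, 8.26 and 8.43 in wild types, so that the mutants lay below the wild types, with only 0.02 between the nearest mice. Its difference of -0.22 ± 0.0931 (SE) had a 95% interval of -0.43 to -0.01, an unadjusted p of 0.039 and, by limma, an adjusted p of 0.857. Leaving out 1 mouse at a time gave -0.27 to -0.13, the last without replicate 8. Its other probe sets differed by -0.11 and -0.04, with overlapping groups. Psmc5 was the steadiest member, with a range of 0.09 over the 6 mice and a difference of -0.01, while its dim second probe set, at 4.36 ± 0.0509 in the mutants and 4.52 ± 0.0733 in wild types (SD, n = 3 each), differed by -0.16 (unadjusted p = 0.0492, adjusted p = 0.857 in limma's test). Psmd4, a ubiquitin receptor of the cap, differed by -0.17 (-0.05 without replicate 8), and Psmc1 by -0.13 (-0.01 without it). Psmc4, which was dim at 5.55 in the mutants and 5.49 in wild types, and Psmd2, a scaffold of the base, were above 0, at 0.06 and 0.04.

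The lid includes Psmd14, the enzyme that removes ubiquitin chains from captured substrates, and scaffold subunits around it. Of 8 lid genes 6 were below 0, with a median of -0.05, and without replicate 8 the count was 4, with a median of 0.00. Psmd14 differed by -0.02, with an interval of -0.19 to 0.15. Psmd13 read 7.95, 7.54 and 7.87 in Hdh4/Q80 mice, against 8.02, 7.93 and 7.91 in wild types. Replicate 8 was again well below the others, and the difference of -0.17 ± 0.104 (SE) became -0.04 without it. Psmd11, a scaffold subunit, was above 0 on the brightest probe set, at 9.49, 9.59 and 9.82 in the mutants and 9.77, 9.36 and 9.49 in wild types (0.09, interval -0.17 to 0.36). Its other probe sets differed by 0.16 and -0.05. Psmd12 differed by 0.05, and Psmd3, Psmd6, Psmd7 and Psmd8 by -0.03 to -0.11.

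The activators open the core without ATP. Psme1 is the interferon-induced alpha subunit of one such cap, Psme3 its nuclear relative and Psme4 a large single-chain activator. All 3 were below 0 on their brightest probe sets (-0.05, -0.09 and -0.04, median -0.05), and the groups overlapped in each. Psme1 read 7.59, 7.31 and 7.75 in Hdh4/Q80 mice and 7.56, 7.63 and 7.61 in wild types. Its dim second probe set had the opposite sign, at 4.36, 4.48 and 4.42 in the mutants and 4.31, 4.20 and 4.24 in wild types (0.16 ± 0.07, SE; unadjusted p = 0.0409, adjusted p = 0.857 in limma's test). Psme3 read 8.53, 8.26 and 8.63 in the mutants and 8.54, 8.49 and 8.64 in wild types. Psme4 read 6.64, 6.61 and 6.77 in the mutants and 6.58, 6.76 and 6.81 in wild types. Without replicate 8 these 3 differed by 0.07, 0.02 and -0.01, with a median of 0.02.

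The assembly chaperones lay on both sides of 0. Psmd5, Psmd9 and Psmd10 build the base and Psmg1 to Psmg4 the core rings, and 4 of the 7 were below 0, with a median of -0.02. Without replicate 8 the count was 2 of 7 and the median 0.03, as under array weights, and the median was also above 0 after quantile normalization and cyclic loess (0.03 and 0.02). Psmd9 had the highest difference of all members, at 7.61, 7.65 and 7.73 in Hdh4/Q80 mice and 7.62, 7.59 and 7.45 in wild types (0.11 ± 0.0751, SE). Replicate 7 lay just below the highest wild type, and leaving out 1 mouse at a time gave 0.06 to 0.14. Psmg4 read 8.45, 8.03 and 8.39 in the mutants and 8.32, 8.48 and 8.36 in wild types, a difference of -0.10 that was 0.03 without replicate 8. Psmd5, Psmg1 and Psmg3 differed by -0.05, -0.02 and -0.02, and Psmd10 and Psmg2 by 0.05 and 0.06. Outside the particle, the meiotic recombination factor Psmc3ip and the Psme3-binding protein Psme3ip1 differed by -0.09 and -0.11, and neither passed the test.

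**Figure D5:**
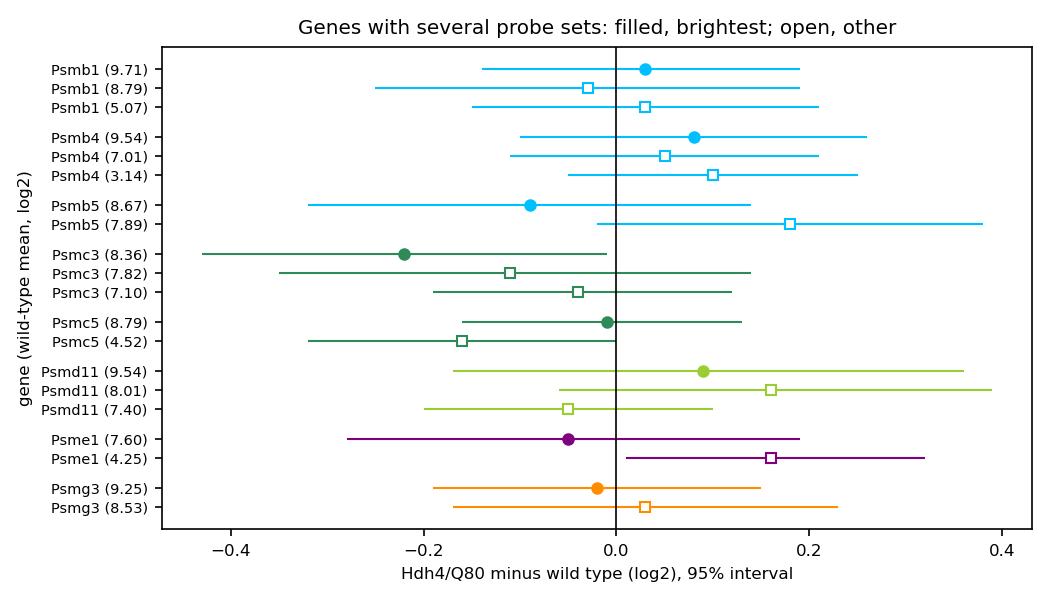
Differences between Hdh4/Q80 and wild-type striatum on every probe set of the 8 genes that have more than 1, with the wild-type mean (log2) beside each gene. Filled circles are the brightest probe sets, open squares the others, and bars 95% intervals; the signs agree on all probe sets for 3 of the 8 genes.

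Repeat measurements of the same gene give a sense of this scale. Of the 46 genes 8 had more than 1 probe set, and for 3 of these, Psmb4, Psmc3 and Psmc5, all differences had the same sign. For Psmb1, Psmb5, Psmd11, Psme1 and Psmg3 the probe sets disagreed. Of the 58 probe sets 14 carry a suffix of the manufacturer that marks probes shared with related transcripts or a reduced probe choice, the brightest ones of Psmc3, Psma3, Psmb4, Psmb5, Psmb7, Psmd9, Psmd12 and Psmg3 among them.

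Genes that work with the proteasome were taken from a list of 32, of which 18 were measured. Of these 12 (66.7%) were below 0, with a median of -0.04, and 0 passed the test. Of all genes 53.3% were below 0, and of those past the level of 7.58, 61.9%. The groups did not overlap for 1 of the 18 with the mutants below, Nfe2l2, beside 5.22% of all genes. They did not overlap for 1 with the mutants above, Ufd1, beside 5.87%. Stub1, a ubiquitin ligase that works with chaperones, read 9.29, 8.96 and 9.34 in Hdh4/Q80 mice, against 9.42, 9.42 and 9.32 in wild types (-0.19 ± 0.101, SE; -0.07 without replicate 8). Nfe2l2, the transcription factor NRF2, which raises proteasome gene expression under oxidative stress, read 7.39, 7.45 and 7.39 in the mutants and 7.54, 7.47 and 7.54 in wild types. The mutants lay below the wild types, and replicate 8 was here the highest mutant (-0.11 ± 0.0659, SE; -0.13 to -0.09 with 1 mouse left out; unadjusted p = 0.142, adjusted p = 0.857 in limma's test). Vcp, the segregase that pulls substrates from complexes, differed by -0.11 ± 0.0737 (SE) and was below 0 on its 3 other probe sets too (-0.14, -0.09 and -0.03). The related factor Nfe2l1, which induces subunit genes when proteasome activity is short, differed by -0.13 on both of its probe sets, and Pomp, the core maturation protein, by -0.09. Without replicate 8 these 2 differed by -0.02 and -0.03. Replicate 8 was the lowest mouse for 10 of the 18 genes (55.6%), beside 36.0% of all genes and 49.0% of those past the level of 7.58.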

How the data were processed

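The authors deposited log2 expression values per probe set. Per the submitters' processing notes they used RMA and affy, with no version named, and the sources used here do not say which arrays were processed together. RMA evens out intensity distributions, so a global change in RNA would be lost and fold changes are compressed. The number of arrays limits the precision, and no detection calls were used. After removal of 66 control probe sets, the remaining 12422 were fitted in R 4.3.3 with limma 3.58.1 (lmFit, eBayes). P-values were adjusted over all of them by Benjamini and Hochberg's method, with a threshold of 0.05. The fit was tested on simulated data. Groups came from the sample titles. Each p-value sets a group difference against the spread between mice within groups, which limma moderates with that of the other probe sets. A platform annotation named 1 gene for 10833 probe sets, several for 396 and none for 1193, and 46 of 46 members matched the reference by gene identifier. The members and lists were chosen with earlier results of these data known. Genes described by mouse were the 2 of smallest unadjusted p per class, all catalytic, immunoproteasome and activator genes, any gene with a probe set at an unadjusted p under 0.05, and 3 per associated list; Psma6, Psma4, Nfe2l1, Pomp and Tap1 were added after values were seen. The planned comparison of protein sequences was not made. Alternatives were a filter on dim probe sets, other normalizations, moderation and array weights, the mean of probe sets, and leaving out each mouse.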

Additional observations from a re-analysis of the deposited data

How the results depend on the processing

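With every alternative run, 0 probe sets on the array and 0 proteasome genes passed the adjusted test. With 1 mouse left out, 22 to 37 of the 46 proteasome genes were below 0 (median difference -0.11 to 0.00), 15 to 26 of the 31 constitutive subunits (-0.12 to 0.00), and 10 to 13 of the 18 associated genes (-0.10 to -0.01); the lowest proteasome counts and the medians nearest 0 came without Hdh4/Q80 replicate 8. The constitutive median was -0.02 without wild-type replicate 4. It was also -0.02 under array weights, which rested the mutant side mainly on replicate 7 (weight 6.19, against 0.228 and 0.405 for replicates 8 and 9). After quantile normalization and cyclic loess 31 of the 46 genes were below 0 (50.6% and 50.0% of all genes), with medians of -0.05 and -0.04. The sign turned for Psme1 (0.06) and Psmb5 (0.05) with the mean of probe sets, for Psmg4 (0.05) with array weights, for Psmc5 after quantile normalization (0.01), cyclic loess (0.02) and array weights (0.00), and for Psmb10 in the same settings (0.03, 0.03 and 0.04). With 1 mouse left out the sign turned for 22 of the 46 genes, 15 of them without replicate 8; among the genes described by mouse these were Psma4 (-0.24 to 0.02), Psmb5 (-0.18 to 0.01), Psmb7 (-0.18 to 0.05), Psmb10 (-0.04 to 0.06), Psmc5 (-0.03 to 0.00), Psmd11 (-0.00 to 0.21), Psme1 (-0.15 to 0.07), Psme3 (-0.17 to 0.02), Psme4 (-0.11 to 0.01) and Psmg4 (-0.18 to 0.03), and outside the 46 it turned for H2-K1 (-0.19 to 0.01). The causes were not tested. No paired analysis was possible because the groups share no replicate numbers.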
